A study of Mus musculus with 2 samples.

Results

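Nuclear receptors are transcription factors that read hormones, vitamins and lipids, and this account covers 37 of them in inguinal white fat. The members are a list of gene symbols, and the rule that forms it uses no measured value. All 37 were found by Ensembl identifier among the 37315 genes listed for each library. The set does not hold Pparg, the main fat cell receptor of the family, which appears below as a fat cell marker.

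Poly(A)-selected RNA was sequenced from the inguinal fat of mice given entacapone and of mice given vehicle. Entacapone, a Parkinson disease drug, blocks catechol-O-methyltransferase, and inhibition of the RNA demethylase FTO by it has also been described. Both groups were C57BL/6 males of 23 weeks with obesity from a high-fat diet, so no lean or untreated fat is part of the comparison. Each group is 1 library, and how many mice it pools, at which dose and for how long they were treated, is not known here. No test is therefore possible: every difference below is one between these 2 libraries, and each interval is an exact 95% interval that covers counting error only.

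A nuclear receptor usually joins a DNA-binding domain to a pocket for its ligand. Without ligand many of them hold corepressors on their target genes, and ligand exchanges these for coactivators. Receptors for thyroid hormone, retinoic acid, fatty acids, oxysterols, bile acids, vitamin D and foreign compounds bind DNA as pairs with a retinoid X receptor, commonly on repeats of a short hexamer. Steroid receptors pair with themselves, and orphan receptors such as the estrogen-related and ROR receptors act without a classical hormone. In white fat the family is known for its part in fat cell formation, lipid storage and fatty acid use.

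The promoter windows of Rarb, Vdr and Nr1h4 are shown because Rarb is known to answer to the ligand of its own family, and because Vdr and Nr1h4 were among the 3 compared members that differed at least 2-fold. Hnf4a, the other of these 3, held no nuclear receptor hexamer of the kinds searched in its windows and is not shown. The windows come from RefSeq on GRCm38.p6, run 5′ to 3′ on the strand of the gene, and span 250 bases before to 50 after an annotated start. Capitals mark hexamers that the family is known to bind, searched on both strands. The consensus was AGGTCA. A variant with another first base was GGGTCA. Replacing the third base of the consensus gave AGTTCA. Both replacements together gave GGTTCA. On the other strand the consensus reads TGACCT, as in the Nr1h4 window. The hexamer of the Vdr window reads TGAACT for the same reason.
Rarb, chr14:16575427-16575726, minus strand: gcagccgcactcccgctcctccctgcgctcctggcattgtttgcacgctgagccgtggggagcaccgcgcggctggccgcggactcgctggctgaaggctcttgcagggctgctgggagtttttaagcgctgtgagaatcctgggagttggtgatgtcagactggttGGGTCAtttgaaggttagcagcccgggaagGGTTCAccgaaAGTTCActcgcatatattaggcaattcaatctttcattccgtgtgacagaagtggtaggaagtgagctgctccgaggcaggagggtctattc
Vdr, chr15:97908247-97908546, minus strand: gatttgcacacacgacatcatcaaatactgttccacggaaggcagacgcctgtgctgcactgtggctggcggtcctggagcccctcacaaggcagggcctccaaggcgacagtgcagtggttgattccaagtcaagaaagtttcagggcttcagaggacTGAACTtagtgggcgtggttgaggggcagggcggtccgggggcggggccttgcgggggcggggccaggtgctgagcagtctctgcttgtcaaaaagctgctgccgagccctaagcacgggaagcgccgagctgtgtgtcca
Nr1h4, chr10:89506609-89506908, minus strand: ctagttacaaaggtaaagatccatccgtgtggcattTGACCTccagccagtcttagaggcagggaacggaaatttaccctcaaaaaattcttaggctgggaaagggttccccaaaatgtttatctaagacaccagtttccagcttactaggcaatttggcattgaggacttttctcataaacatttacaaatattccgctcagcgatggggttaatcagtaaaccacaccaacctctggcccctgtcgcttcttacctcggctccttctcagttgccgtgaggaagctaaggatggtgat
The Rarb window held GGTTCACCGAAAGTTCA, a direct repeat of the hexamer with a spacer of 5 bases, at -53 to -37 from the start. That arrangement is known as a retinoic acid response element. A direct repeat with this spacer was found in 0.0974% of all 32851 windows and in 1 of the 54 windows of the members. Windows were at hand for 35 of the 37 members, all but Nr5a1 and Thra. A hexamer alone is common, with 43.7% of all windows and 40.7% of member windows holding at least 1. Direct repeats with spacers of 1 to 4 bases were in no member window. A match is a description of the letters and not a measured binding site.

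The entacapone library held 12979673 counted reads and the vehicle library 13620056. Values are CPM, read counts divided by the scaled library size, and levels of different genes are compared only as RPKM, which also divides by exon length. The fat cell markers Adipoq and Plin1 were abundant, at 3118 and 1321 CPM with entacapone, against 2867 and 1505 CPM with vehicle. Beyond counting error, 6 of 12 fat cell markers were higher and 6 lower, and their summed level was 48338 against 46347 CPM. Beside this and the marker lists below, 20.2% of all genes averaging 1 CPM or more were higher and 21.1% lower. At many reads small differences pass counting error, as for Lipe at log2 0.03 with 27944 against 29573 reads. Pparg, the fat cell receptor, stood at 130 against 162 CPM. Markers of other tissues moved between the libraries and are given beside some of the receptors or target genes known from those tissues. For the remaining receptors, Rarg and Rora among them, the part of other tissues in the value was not tested either. Tnnc2, a fast muscle troponin gene, was listed at 0 in both libraries, while Tnnt3 of the same complex had 154 CPM with entacapone and 99.5 CPM with vehicle. A listed 0, here and below, therefore need not mean that the RNA was absent. In bulk tissue, fewer cells of a type and less RNA per cell cannot be told apart.

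Of the 37 receptors, 27 reached a mean of 1 CPM over both libraries and were compared. Of these, 26 reached 1 CPM in each library, and Hnf4a did so only in the vehicle library. Nearest to the limit were Esrrg (mean 1.09 CPM) and Hnf4a (1.13 CPM) inside it and Rorb (0.680 CPM) outside it. Together the 37 genes took 12852 reads in the entacapone library and 13202 in the vehicle library.

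Levels per exon length were led by the oxysterol receptor Nr1h3, with 52.7 RPKM in the entacapone and 53.4 RPKM in the vehicle library. The common partner Rxra followed at 43.7 against 41.4 RPKM, then the second oxysterol receptor Nr1h2 at 24.3 against 21.9 RPKM. The thyroid hormone receptor Thra had 22.6 against 18.5 RPKM, and the retinoic acid receptor Rarg 15.7 against 12.8 RPKM. These 5 genes made up 70.0% of the summed RPKM of all 37 in the entacapone library and 66.8% in the vehicle library. Nr1h3 and Rxra differed beyond their counting intervals in both libraries, while Nr1h2 and Thra overlapped in the entacapone library.

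**Figure D1:**
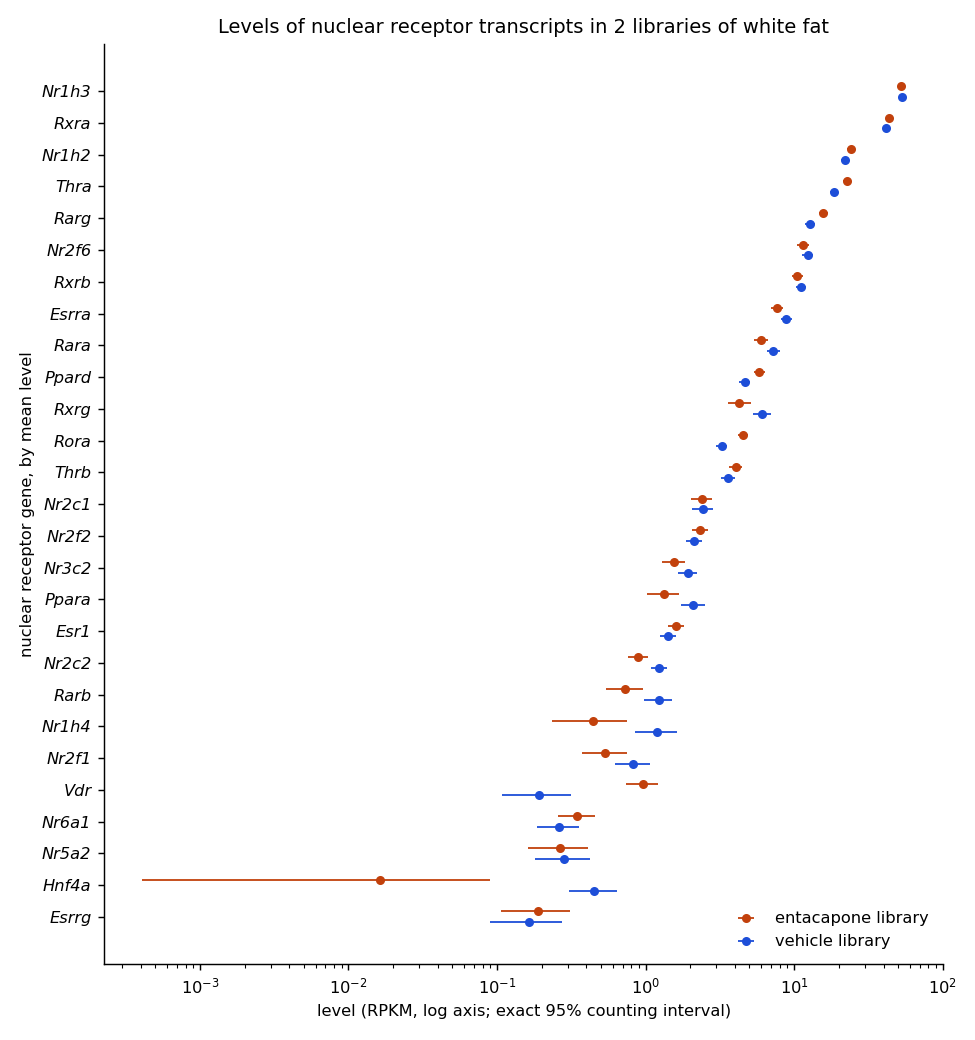
Level of each of the 27 compared receptors in the entacapone and the vehicle library, in RPKM on a log axis, with points for values and bars for exact 95% counting intervals. Nr1h3 leads at 52.7 against 53.4 RPKM, and the libraries part most clearly at Vdr, Nr1h4 and Hnf4a.

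Below this leading group, Nr2f6 and Rxrb lay at 10.5 to 12.3 RPKM in the 2 libraries and overlapped each other in both. Nr2f6 shares 1622 of its 2983 exon bases with Ocel1 on the opposite strand, and the kit does not mark strand. Whether reads in that stretch were counted is not known here. The RPKM and place of Nr2f6, and with them the share of the leading group, are therefore uncertain. Rora and Thrb, Nr2c1 and Nr2f2, and Nr3c2 and Ppara were further neighbours that overlapped in both libraries. In all, 8 of 26 neighbouring pairs overlapped in both. The levels run over a wide range, and the steps near the bottom rest on few reads.

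Most receptors differed little between the libraries, and the exceptions were scarce transcripts. At least 2-fold higher was 1 of the 27 compared genes, Vdr (3.70%, against 1.66% of all 13361 genes compared). At least 2-fold lower were 2, Hnf4a and Nr1h4 (7.41%, against 3.50% of all genes). Beyond counting error at any size, 7 were higher (25.9%, against 20.2% of all genes) and 8 lower (29.6%, against 21.1% of all genes). With library totals as the scale this split was 5 higher and 10 lower, and that of all genes moved the same way, to 2185 higher and 3274 lower. The median log2 ratio of the compared receptors was -0.02, beside 0.0040 for all genes compared. All 17 receptors with at least 10 CPM in both libraries lay within 1.5-fold, as did 94.2% of all 8906 such genes.

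**Figure D2:**
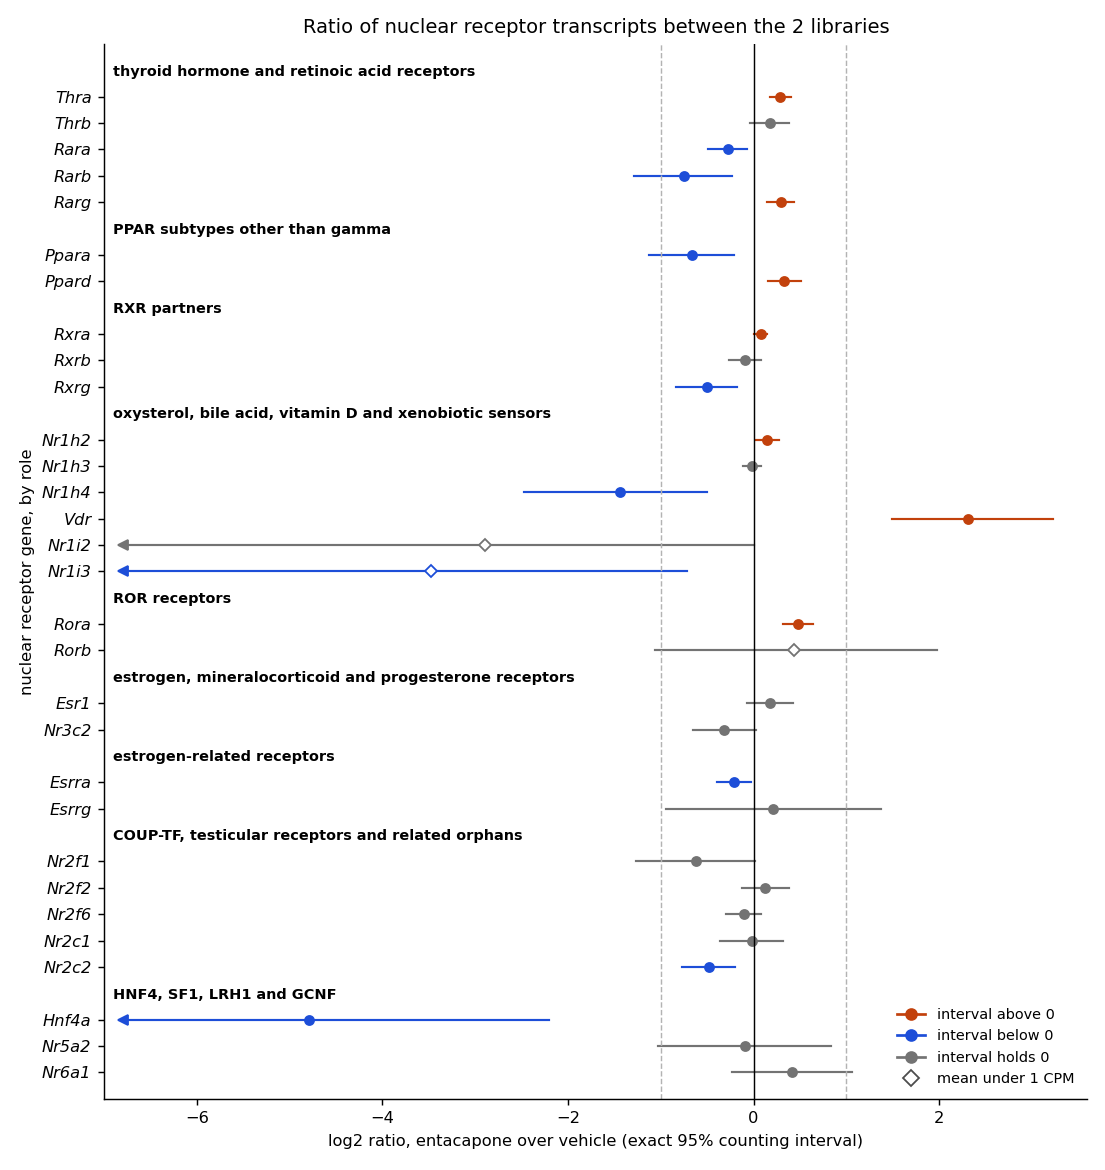
Log2 ratio of entacapone over vehicle for the 30 receptors with more than 3 reads in at least 1 library, grouped by role, with exact 95% counting intervals; dashed lines mark 2-fold and open diamonds a mean under 1 CPM. Vdr lies at 2.31, and Hnf4a at -4.80 with an interval that runs off the axis.

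**Figure D3:**
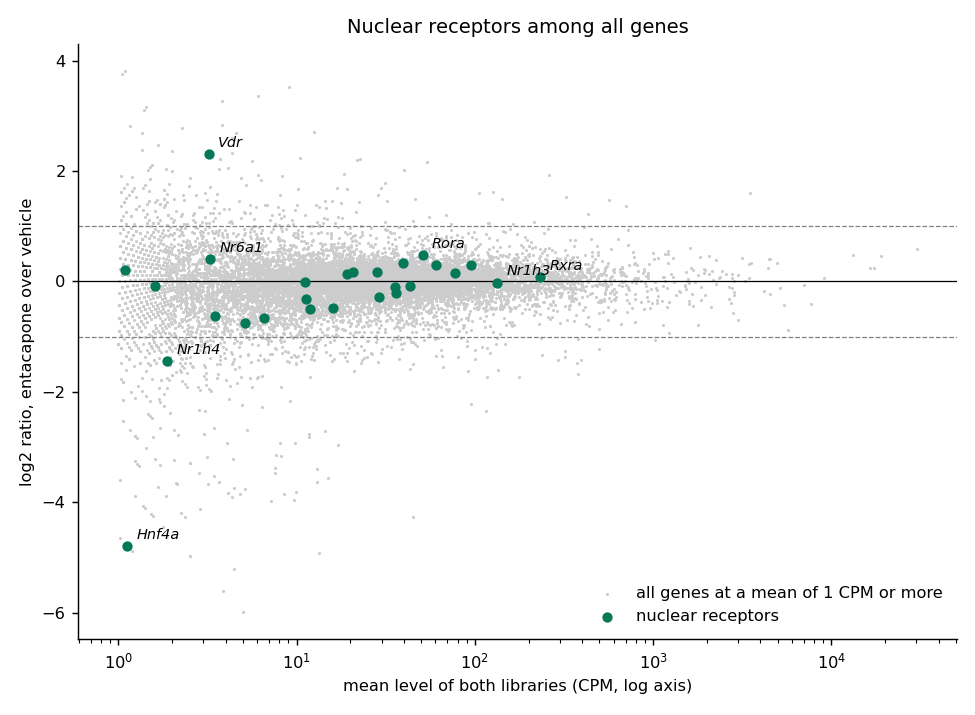
Log2 ratio of entacapone over vehicle against mean level (CPM, log axis) for all compared genes in grey and the 27 receptors in green. Vdr, Nr1h4 and Hnf4a lie outside the dashed 2-fold lines, all 3 at a mean level of a few CPM or less.

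The thyroid hormone receptors carry the effect of triiodothyronine on gene expression. Thra (chromosome 11, 98740638 to 98769006, GRCm38) had 104 CPM in the entacapone library and 85.1 CPM in the vehicle library. Its ratio was 1.22-fold (log2 0.29, 0.18 to 0.40), beyond counting error. Thra shares 263 exon bases with Nr1d1 on the opposite strand, and Nr1d1 itself had 1637 against 1042 reads. The library kit does not mark strand, so reads in that stretch cannot be assigned. Thrb, the subtype known from liver, had 30.0 against 26.6 CPM, and its interval held 0 (log2 0.18, -0.03 to 0.39). Per exon length Thra was 84.8% of the thyroid hormone receptor RNA in the entacapone library and 83.7% in the vehicle library.

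The 3 retinoic acid receptors did not move together. Rarg (chromosome 15, 102234938 to 102257517) had 66.9 CPM in the entacapone library and 54.7 CPM in the vehicle library (log2 0.29, 0.15 to 0.43). Rara, the broadly expressed subtype, had 26.2 against 31.7 CPM (log2 -0.28, -0.49 to -0.07). Rarb (chromosome 14, 16430839 to 16819156), whose promoter repeat is shown above, had 49 reads in the entacapone library against 89 in the vehicle library. That is 3.83 against 6.44 CPM, 1.68-fold lower (log2 -0.75, -1.28 to -0.23). By RPKM, Rarg took 70.0% of the retinoic acid receptor RNA in the entacapone library and 60.2% in the vehicle library. The share of Rara was 26.7% against 34.1%, and that of Rarb 3.24% against 5.74%. Rarb shares 1793 exon bases with Top2b on the opposite strand, which had 1136 against 1232 reads. Of 12 fibroblast and adipocyte progenitor markers, 11 were lower beyond counting error and 0 higher, with a summed level of 5850 against 8968 CPM and no marker at 0. Their part in the Rarb value was not tested.

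The retinoid X receptors are the partners of much of the family. Rxra (chromosome 2, 27676440 to 27762957) was the most read member, with 238 CPM in the entacapone library and 226 CPM in the vehicle library. Its ratio of 1.05-fold was just beyond counting error (log2 0.08, 0.0045 to 0.15), a call lost with DESeq2 size factors and with library totals. Rxrb had 41.7 against 44.4 CPM, with an interval that held 0. Rxrg, the subtype with the most restricted expression, had 126 against 193 reads, 1.42-fold lower (log2 -0.51, -0.84 to -0.17). Rxra made up 74.7% of the retinoid X receptor RNA per exon length in the entacapone library and 70.6% in the vehicle library. The Rxrg share was 7.33% against 10.4%.

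The oxysterol receptors, known as liver X receptors, sense cholesterol derivatives and drive its export. Nr1h3 (chromosome 2, 91184061 to 91202834) had 133 CPM in the entacapone library and 134 CPM in the vehicle library. Its interval was narrow and held 0 (log2 -0.02, -0.12 to 0.08). Macrophages are known to express Nr1h3, and 12 of 14 macrophage markers were lower beyond counting error and 1 higher, with a summed level of 1207 against 2102 CPM and no marker at 0. Their part in the Nr1h3 value was not tested. Nr1h2 had 81.3 against 73.4 CPM (log2 0.15, 0.02 to 0.27), a call lost with library totals.

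Vdr, the vitamin D receptor (chromosome 15, 97854425 to 97910630), had the highest ratio of the family. It had 69 reads (5.39 CPM) in the entacapone library and 15 reads (1.09 CPM) in the vehicle library, a ratio of 4.96-fold with an interval of 2.81 to 9.35. Vdr is well known from keratinocytes and hair follicles. Of 11 compared markers of skin and mammary epithelium, 8 were higher and 0 lower beyond counting error. The summed level of the 12 listed was 101 CPM in the entacapone library and 30.9 CPM in the vehicle library, 3.26-fold apart, and no marker was at 0. Among them Krt14 had 29.1 against 7.53 CPM and Krt5 9.22 against 2.03 CPM. The part of these cells in the Vdr value was not tested. The vitamin D-degrading enzyme Cyp24a1, a classical target of the receptor, was listed at 0 reads in both libraries, as was the calcium channel gene Trpv6. At the floor of 3 counts, a 0 allows up to 0.234 CPM with entacapone and 0.217 CPM with vehicle, and the exact 95% interval of a 0 reaches 0.288 CPM with entacapone and 0.267 CPM with vehicle. Both limits cover counting error only. The activating enzyme Cyp27b1 had 2 against 1 reads. The hydroxylases Cyp27a1 (29.1 against 42.2 CPM; log2 -0.54, -0.73 to -0.35) and Cyp2r1 (12 against 28 reads; log2 -1.11, -2.22 to -0.09) were lower. These were the only 2 compared genes of the 6 listed for vitamin D. Summed hepatocyte markers (114 against 526 CPM) and macrophage markers (1207 against 2102 CPM) were also lower in the entacapone library. Their part in these 2 values was not tested.

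Hnf4a, Nr1h4, Nr1i2, Nr1i3 and Nr0b2, all known from hepatocytes and grouped after their values were seen, each had fewer reads in the entacapone library. Other members known from liver did not all do so: Thrb had more reads there, 384 against 367. Nr5a2 had slightly fewer, 20 against 23, and both genes were within counting error. Hnf4a (chromosome 2, 163506808 to 163572910), a regulator of hepatocyte identity, had 1 read in the entacapone library against 30 in the vehicle library. Its ratio was 27.8-fold lower, with an interval of 4.62-fold to 1134-fold. Nr1h4, the bile acid receptor (chromosome 10, 89454234 to 89533585), had 13 against 38 reads, 2.71-fold lower (log2 -1.44, -2.47 to -0.50). Nr1i3, a sensor of foreign compounds, had 1 against 12 reads (log2 -3.47, -8.89 to -0.72), at a mean under 1 CPM. It shares 3304 exon bases with Tomm40l on the opposite strand, which had 119 against 108 reads. Nr1i2, which senses drugs and steroids, had 1 against 8 reads, with an interval that held 0 (log2 -2.89, -8.36 to 0.01). Nr0b2, a corepressor without a DNA-binding domain, had 0 against 2 reads, too few for a ratio.

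Hepatocyte markers were lower in the same library. Of 25 listed, 23 were compared and all 23 were lower beyond counting error, 22 of them at least 2-fold, with a median log2 ratio of -2.63. Their summed level was 114 CPM in the entacapone library and 526 CPM in the vehicle library, and no marker was at 0. Albumin (Alb) stood at 66.7 against 204 CPM and transthyretin (Ttr) at 1.95 against 24.1 CPM. The part of liver RNA in the receptor values was not tested.

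**Figure D4:**
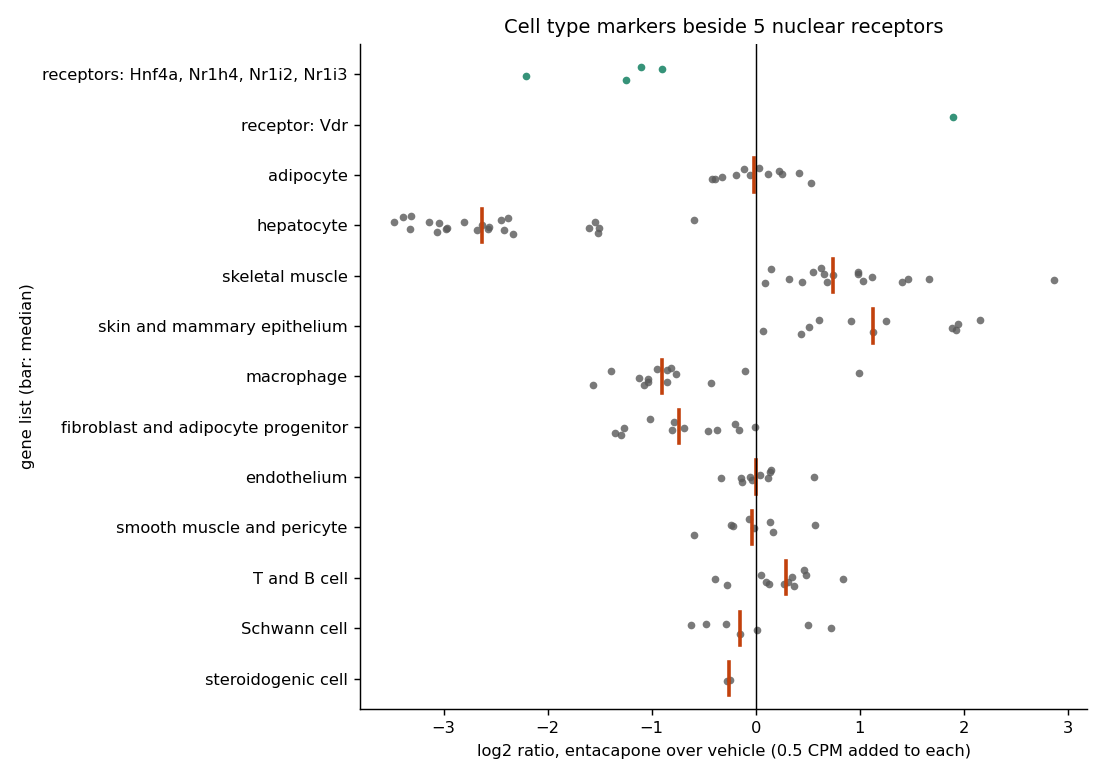
Log2 ratio of entacapone over vehicle for 5 receptors (green) and for compared markers of 11 cell types (grey; bars are medians), with 0.5 CPM added to each value, which pulls scarce genes toward 0. The hepatocyte median lies at -2.63 and the epithelium median at 1.13; the receptors shown were picked after their values were seen.

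The fatty acid sensors differed in direction. Ppard (chromosome 17, 28232700 to 28301474), which is widely expressed, had 43.8 CPM in the entacapone library and 34.9 CPM in the vehicle library (log2 0.33, 0.15 to 0.51). Ppara (chromosome 15, 85734983 to 85802819), the receptor of hepatic fatty acid oxidation, had 65 against 111 reads. That is 5.08 against 8.04 CPM, 1.58-fold lower (log2 -0.66, -1.13 to -0.21). Hepatocytes are known to express Ppara, and the part of the hepatocyte RNA described above in its value was not tested.

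Rora (chromosome 9, 68653786 to 69388246) is an orphan receptor of the clock and of lipid metabolism. Among the members with at least 10 CPM in both libraries it had the largest upward ratio. It had 59.3 CPM in the entacapone library and 42.6 CPM in the vehicle library, 1.39-fold (log2 0.48, 0.32 to 0.64). Rorb, known from brain and retina, had 10 against 8 reads.

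Among receptors of steroids and their orphan kin, differences were small. Esr1, the main estrogen receptor of fat, had 281 reads in the entacapone library and 268 reads in the vehicle library, with an interval that held 0 (log2 0.18, -0.07 to 0.43). Nr3c2, the mineralocorticoid receptor, had 128 against 172 reads (log2 -0.32, -0.66 to 0.02), which passed as lower with library totals. Esrra, which drives mitochondrial genes together with PGC-1 coactivators, had 33.6 against 38.9 CPM and was lower beyond counting error (log2 -0.21, -0.40 to -0.02). Esrrg had 15 against 14 reads, and Esrrb 3 against 1. Pgr, an estrogen-induced receptor, had 1 against 0 reads, and Esr2 was listed at 0 in both libraries. Esrra thus gave 97.1% of the estrogen-related receptor RNA per exon length in the entacapone library and 98.1% in the vehicle library.

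The COUP-TF and testicular receptors are orphan receptors that often repress. Nr2f6 had 34.2 CPM in the entacapone library and 36.8 CPM in the vehicle library, and Nr2f2, a factor of veins and progenitor cells, 20.1 against 18.4 CPM. Both intervals held 0. Endothelial markers were mixed, with 4 of 10 higher and 3 lower beyond counting error. Nr2f1 had 35 against 58 reads (log2 -0.62, -1.27 to 0.01), and passed as lower with DESeq2 size factors and with library totals. Nr2c2 had 13.3 against 18.5 CPM, 1.40-fold lower (log2 -0.48, -0.77 to -0.20), while its relative Nr2c1 had 141 against 154 reads. Nr2c2 shares 4590 exon bases with Mrps25 on the opposite strand, which had 397 against 428 reads. Nr2f6 likewise shares 1622 exon bases with Ocel1, which had 265 against 294 reads. Nr6a1, a germ cell factor, had 48 against 39 reads and Nr5a2, known from liver and pancreas, 20 against 23, and both intervals held 0.

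The members at the bottom were Nr2e3, a photoreceptor factor, Nr5a1 and Nr0b1, both of steroid-producing organs, and Esr2. These 4 were listed at 0 reads in both libraries, and 6 further members had reads but a mean under 1 CPM. Of 6 markers of steroid-producing cells, Hsd3b1 was listed at 0 in both libraries. Star had 15 reads in the entacapone library against 21 in the vehicle library, and Cyp11a1 10 against 13. Cyp21a1 had 5 against 0 reads, and Cyp17a1 0 against 3. Mc2r, the corticotropin receptor that fat cells also carry, had 23.6 against 28.2 CPM.

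Cofactors of the receptors were mostly slightly higher. Beyond counting error, 7 of 12 coactivators were higher and 1 lower (median log2 ratio 0.20, beside 0.0040 for all genes). For this list and those below, the share of all genes compared was 20.2% higher and 21.1% lower. Ppargc1a, the inducible partner of Esrra and the PPARs, had 48 reads in the entacapone library against 29 in the vehicle library (log2 0.84, 0.14 to 1.55). Ncoa3 was at 0.44 (0.27 to 0.60). At the low end were Ppargc1b (-0.63, -1.27 to -0.01) and Ncoa1 (-0.12, -0.26 to 0.02). Beyond counting error, 6 of 9 corepressor genes were higher and 0 lower (median 0.20). Tbl1xr1, an exchange factor of the corepressor complex, had 26.2 against 13.5 CPM (log2 0.96, 0.70 to 1.23), and Nrip1 was at 0.39 (0.27 to 0.52). Lcor (-0.42, -0.94 to 0.09) and Nr2c2ap (0.11, -0.75 to 0.97) stood at the low end.

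The retinoid supply genes went both ways. Of 18 listed, 12 were compared, with 4 higher and 5 lower beyond counting error and a median of -0.07, which was 0.03 at a minimum of 5 CPM. Aldh1a3, which makes retinoic acid, had 5.24 CPM in the entacapone library and 14.6 CPM in the vehicle library, 2.79-fold lower (log2 -1.48, -1.90 to -1.08). Aldh1a2, of the same function, had 27 against 51 reads (log2 -0.81, -1.54 to -0.11). Cyp26b1, which breaks retinoic acid down, was at 0.48 (0.17 to 0.80), and the retinol carrier Rbp4 at 0.42 (0.36 to 0.48) with 400 against 299 CPM. Aldh1a1, a retinal dehydrogenase abundant in fat, had 345 against 298 CPM (log2 0.21, 0.15 to 0.27). Dhrs3, which returns retinal to retinol, had 228 against 302 CPM (log2 -0.41, -0.48 to -0.34). Dhrs3 and Aldh1a1 were named after their values were seen.

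For thyroid hormone, 4 of 9 supply genes were compared, with 1 higher and 2 lower beyond counting error (median -0.30). Slc7a8 was at 0.48 (0.36 to 0.60) and Slc7a5 at -0.20 (-0.64 to 0.23). The transporter Slc16a10, at -0.71 (-0.91 to -0.50), was lower. The activating deiodinase Dio2 had 4 reads in the entacapone library against 13 in the vehicle library. Of 6 compared target genes of the receptors, 1 was higher and 4 lower (median -0.17, mean -0.38). Klf9 had 167 against 109 CPM (log2 0.62, 0.52 to 0.72), and is also known to answer to glucocorticoids. Atp2a2, the calcium pump, was at 0.01 (-0.07 to 0.10). Hr, a corepressor, had 81.7 against 145 CPM (log2 -0.83, -0.94 to -0.72). The thermogenic gene Ucp1 was down at 8 against 45 reads (log2 -2.38, -3.68 to -1.28).

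Oxysterol receptor targets went both ways. Beyond counting error, 4 of 12 were higher and 6 lower (median -0.15). The cholesterol exporters parted, with Abcg1 at 142 CPM in the entacapone library against 104 CPM in the vehicle library (log2 0.46, 0.36 to 0.56). Abca1 had 187 against 248 CPM (log2 -0.41, -0.48 to -0.33) and was named after its value was seen. Scd1, a desaturase, was highest at 0.59 (0.59 to 0.60). The lipogenic factor Srebf1 was at -0.72 (-0.78 to -0.66).

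Of 20 listed targets of PPAR alpha and delta, 18 were compared, with 7 higher and 9 lower beyond counting error and 3 of these at least 2-fold lower (median -0.05, mean -0.43). Pdk4, which spares glucose, was at 0.53 (0.48 to 0.58) and Vnn1 at 0.51 (0.33 to 0.70). The microsomal hydroxylases Cyp4a10 and Cyp4a14 were lowest. Cyp4a10 had 3 reads in the entacapone library against 48 in the vehicle library (log2 -3.89, -6.22 to -2.26). Cyp4a14 had 7 against 87 reads (log2 -3.53, -4.88 to -2.42). Liver is known for high levels of both, and the part of the liver markers described above in these values was not tested.

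Beyond counting error, 7 of 12 targets of the estrogen-related receptors were higher and 1 lower (median 0.22, beside 0.0040 for all genes). Of all genes compared, 20.2% were higher and 21.1% lower. Genes with many reads, such as Atp5b with 26802 against 24604, pass counting error at small differences. Esrra itself was lower. Vegfa was at 0.55 (0.48 to 0.62), with Pdk4, counted in both lists, next. Cycs (-0.03, -0.13 to 0.08) and Acadm (-0.07, -0.11 to -0.02) were lowest. Muscle expresses these genes strongly, and 16 of 17 compared skeletal muscle markers were higher beyond counting error and 0 lower. The summed level of the 18 muscle markers listed was 2430 CPM in the entacapone library and 1558 CPM in the vehicle library, with Tnnc2 listed at 0 in both. Their part was not tested.

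Of 11 targets of the bile acid and foreign compound sensors, 4 were compared, with 1 higher and 1 lower beyond counting error. Their median of -0.35 turned on the limits chosen: it was -0.85 at a minimum of 0.5 CPM, -0.72 with no minimum, -0.19 when 2 CPM in place of 0.5 CPM was added to each value, and 0.011 at a minimum of 5 CPM. Cyp2b10 had 75 reads in the entacapone library against 39 in the vehicle library (log2 1.05, 0.48 to 1.65). Abcb1a was at 0.01 (-0.26 to 0.28), Abcc2 at -1.02 (-2.19 to 0.07) and Cyp8b1 at -1.16 (-2.27 to -0.15). Cyp3a11, the classical hepatic target of Nr1i2, had 1 against 22 reads.

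Of 12 steroid supply genes listed, 11 were found and 8 compared, with 1 higher and 2 lower beyond counting error (median -0.08). Hsd11b1, which regenerates active glucocorticoid, had 167 CPM in the entacapone library and 119 CPM in the vehicle library (log2 0.49, 0.39 to 0.58). Srd5a1 was at 0.05 (-0.84 to 0.94), Hsd17b7 at -0.18 (-0.49 to 0.12) and Akr1c14 at -0.89 (-1.59 to -0.22). Aromatase (Cyp19a1) was listed at 0 reads in both libraries. Of 10 targets listed for the estrogen and mineralocorticoid receptors, 5 were compared and all 5 were higher beyond counting error (median 0.74, or 0.40 with no minimum). Of all genes compared, 20.2% were higher and 21.1% lower. These 5 had 1127 to 14689 reads in a library, and at such depth small differences pass counting error. Per1 had 148 against 81.6 CPM (log2 0.86, 0.75 to 0.97), Tsc22d3 567 against 334 CPM (0.76, 0.71 to 0.81) and Fkbp5 430 against 257 CPM (0.74, 0.68 to 0.81). Igfbp4 was at 0.40 (0.37 to 0.44) and Sgk1 at 0.36 (0.24 to 0.47). Per1, Tsc22d3, Fkbp5 and Sgk1 are also classical glucocorticoid targets, and Per1 is a clock gene. Greb1 and Tff1, listed for the estrogen receptor, were at 0 reads in both libraries.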

How the data were processed

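TRIzol extraction, Dynabeads mRNA selection and the TruSeq RNA v2 kit were used, per the labels' protocols. The values deposited by the authors are raw counts for Ensembl genes, 1 library per group. Per the submitters' processing notes, TopHat2 2.1.1 and HTSeq 0.6.0 were used with mm10; which annotation and counting mode is not known here. Symbols, positions and exon lengths came from GENCODE M21 (GRCm38, the same assembly). CPM and RPKM were computed with edgeR 4.0.16 effective library sizes (TMM). Ratio intervals are conditional Clopper-Pearson intervals at 95% (scipy 1.17.1). They were checked on simulated counts that held counting error only, so the check tells nothing of variation between mice or libraries. Comparison was limited to genes averaging 1 CPM or more, called at 2-fold with an interval excluding 1, or beyond counting error at any size. No ratio was given where both libraries had 3 reads or fewer, or where 1 had 0. The floor of 3 counts, as CPM, serves only as a limit beside a listed 0. List medians used a pseudocount of 0.5 CPM. Every member is accounted for, and of each pathway list the 2 highest and 2 lowest compared genes by the pseudocounted ratio are named, with ratios printed without the pseudocount; Sts was not matched, and 2 genes this rule names are not reported here. Intervals cover counting error only, since each group is 1 library. Reads carry no molecular identifiers, so the intervals treat each read as independent. The members and lists were chosen with earlier results of these data known.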

Additional observations from a re-analysis of the deposited data

How the results depend on the processing

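Depth limits the scarce receptors most: the 2-fold calls of Vdr, Nr1h4 and Hnf4a rest on at most 69 reads in a library. With a minimum of 5 CPM they were left out, so 0 receptors were 2-fold higher and 0 lower, with 84 and 190 of all genes. At a limit of 1.5-fold, 4 receptors were lower (Ppara and Rarb were added), with 556 genes higher and 1056 lower in all. DESeq2 1.42.0 size factors, library totals, upper-quartile scaling and TMM without liver, muscle and epithelium genes shifted the median of all genes by -0.04 to 0.01 on the log2 scale. Under these and with the trend on exon length and GC content removed, all 150 recomputed member ratios stayed inside their intervals. For the scalings this was fixed beforehand, since each shifts every ratio alike, by -0.04 to 0.01, too little to leave any member interval. Calls beyond counting error did change with library totals for Rxra, Nr1h2, Nr3c2 and Nr2f1, and with DESeq2 size factors for Rxra and Nr2f1. Of 120 list medians under other settings, 103 moved by less than 0.1. With a minimum of 5 CPM, 2 changed sign: the bile acid and foreign compound targets stood at 0.011 and the retinoid supply genes at 0.03. With the longest transcript in place of all exons, the 10 most abundant receptors were the same genes. No paired analysis was possible because each group holds 1 library.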

Other observations

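Mertk, a receptor for dying cells that is known to be induced by oxysterol receptors in macrophages, stood apart within the macrophage list. It had 61.2 CPM in the entacapone library and 30.5 CPM in the vehicle library, while the macrophage receptor Adgre1 had 21.6 against 64.9 CPM. Crabp2, a carrier of retinoic acid that skin also expresses, had 20 reads in the entacapone library against 6 in the vehicle library (log2 1.85, 0.48 to 3.45), at a mean under 1 CPM. Both genes were singled out after their values were seen.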
